A study of Rattus norvegicus with 4 samples.

Results

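Carbonic anhydrases are a family of zinc enzymes that convert carbon dioxide and water into bicarbonate and a proton. In the kidney they supply the proton that tubule cells secrete and the bicarbonate that they return to the blood. Cytosolic forms work inside the cell, membrane-bound forms at its surface or in the tubule fluid, a mitochondrial form feeds biosynthesis, and a few related proteins have lost the zinc site and the activity. The 10 genes described here are Car2, Car3, Car4, Car5b, Car8, Car11, Car12, Car13, Car14 and Car15, out of 19594 gene symbols in the deposited table. They were taken by symbol, and each had 1 row, so that no choice between rows was needed.

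The tissue was the inner medulla, the innermost kidney zone, of Sprague Dawley rats bought at 13 to 15 weeks of age, given chow with 0.49% NaCl from 14 to 16 weeks of age onward, for 2 weeks, and not treated otherwise. Females and males were compared in 4 total RNA libraries, 2 pools of 4 rats for each sex, with no genetic change in either. The libraries held 34552171 to 41945343 read pairs. Values were deposited as 1 FPKM per sex, fragments scaled by transcript length and library size, with both pools joined, so no spread between pools can be given. The error measure used instead is that of the authors' deposited test, its p-value and the q-value into which the authors turned it by adjusting across every locus they tested. A gene is called where q was under 0.05.

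One gene of the family differed between the sexes by that test. Car15, an enzyme anchored to the outer cell surface by a lipid in rodents and present only as pseudogenes in humans, was at 7.50 FPKM in females and 0.754 FPKM in males. The female value was 9.94-fold the male value, a log2 ratio of 3.31. The authors' deposited table gives it p = 5e-05, the smallest p there, and q = 0.00391. Other loci, such as Slc26a7 and Kit, share this p and q, so they do not rank Car15 above those loci. The other 8 tested genes were not called, and all 8 lay within 1.5-fold. Car14 was not tested by the authors. The count of 1 in 9 tested genes stands beside 2.34% called over all 20307 tested loci. Those with a higher value in females made up 1.63% of the tested loci, and those with a higher value in males 0.719%.

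The Car15 locus spans chromosome 11, 90810796 to 90814786 in build rn5, an interval that no other locus of the table shares. The 250 bases before the Car15 start are shown because Car15 is the one gene called. They come from the RefSeq promoter table of build GRCr8, plus strand, chr11:96651189-96651438.
Car15: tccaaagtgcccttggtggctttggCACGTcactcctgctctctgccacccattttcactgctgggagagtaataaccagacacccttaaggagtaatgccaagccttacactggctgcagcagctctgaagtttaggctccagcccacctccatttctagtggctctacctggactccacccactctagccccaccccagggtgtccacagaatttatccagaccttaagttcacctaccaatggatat
Capitals mark the one match to any of 6 short motifs, 225 bases before the start and on the reverse strand. Motifs were searched on both strands of the 300-base window (250 bases before the start and 50 after it). The motif is ACGTG, the core of hypoxia response elements, which 19.3% of 33469 promoters of that length hold. TATAAA (the TATA box, in 14.2% of promoters), GGGCGG (the GC box, 33.1%), AGAACA (a half-site of androgen and glucocorticoid receptors, 20.7%), AGGTCA (a nuclear receptor half-site, 16.2%) and GTTAAT (an HNF1 half-site, 7.45%) had no match in this window. No binding was measured.

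**Figure D1:**
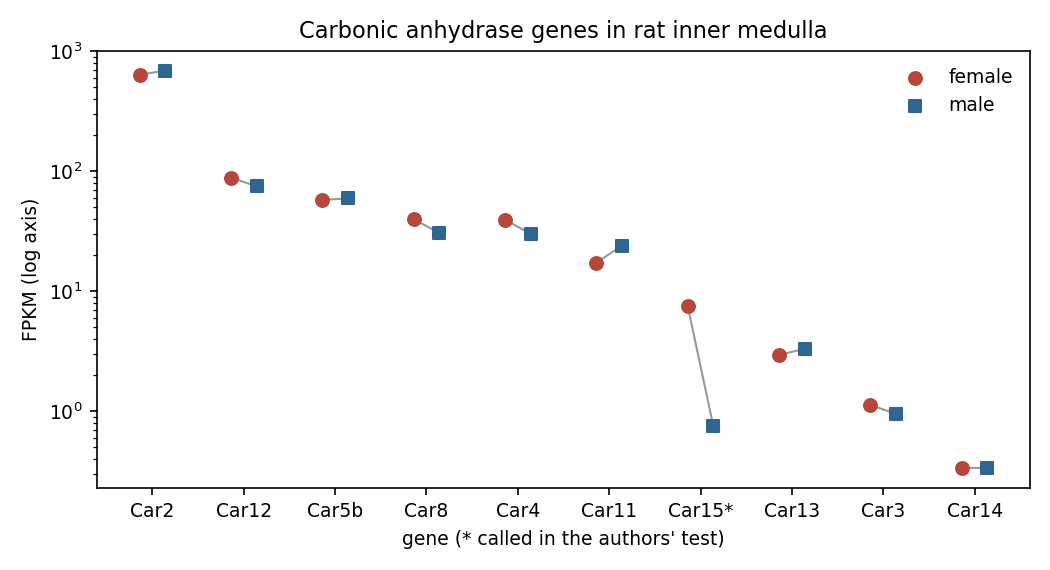
FPKM on a log axis (vertical) of the 10 carbonic anhydrase genes (horizontal, by falling mean), females as circles on the left and males as squares on the right, 1 deposited value per sex with a line between them. Car2 lies highest, at 638 FPKM in females and 690 FPKM in males, and Car15 is the one gene whose line is steep, at 7.50 FPKM in females and 0.754 in males.

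By level the family was dominated by Car2, the main cytosolic enzyme of the kidney, whose loss causes renal tubular acidosis in humans. Car2 was at 638 FPKM in females and 690 FPKM in males, and the authors' deposited table gives q = 0.999. That was 71.5% of the summed FPKM of the 10 genes in females and 75.4% in males, and more FPKM than 99.2% of loci with a symbol in either sex. Next in both sexes came Car12 and then Car5b, Car8, Car4 and Car11. In females Car15 followed as the seventh, ahead of Car13, Car3 and Car14. In males Car15 was the ninth, below Car13 and Car3 and above Car14 alone. The other 7 genes had the same place in both sexes. Without a spread between pools, neighbours close in level, such as Car8 and Car4, cannot be ordered.

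Among the cytosolic enzymes Car2 was followed at a distance by Car13 and Car3. Car13 was at 2.95 FPKM in females and 3.31 FPKM in males, a log2 ratio of -0.16 (q = 0.999 in the authors' deposited table). Car3, a form of low activity abundant in muscle, fat and liver, was at 1.13 FPKM in females and 0.951 FPKM in males, a log2 ratio of 0.25 (q = 0.999 in the authors' deposited table). The log2 ratio of Car2 was -0.11. None of the 3 was called. The summed FPKM of this class was 642 in females and 694 in males. Car3 is known from cells that the samples could also hold. Summed markers of skeletal muscle were at 8.98 FPKM in females and 9.36 FPKM in males. The largest part was the locus joining Myh1 and Myh8, at 4.32 FPKM in females and 4.69 FPKM in males. Of the same list, Acta1 was at 0.0168 FPKM in females and 0.263 FPKM in males, and Mb at 0.0189 and 0.0444 FPKM, both not tested. Summed adipocyte markers were at 137 FPKM in females and 89.0 FPKM in males. Of the adipocyte markers 1 of 7 tested was called, Fabp4, a fatty acid binding protein also made by endothelium, higher in females. Fabp4 was at 92.5 FPKM in females and 49.96 FPKM in males, the largest part of the adipocyte sum in each sex. Of the 7 tested markers 5 had a log2 ratio above 0. Cfd, at 0.517 FPKM in females and 0.807 FPKM in males, went the other way without a call. So did Cidec, at 0.605 FPKM in females and 0.635 FPKM in males. Adipoq, the adipocyte hormone adiponectin, was at 4.14 FPKM in females and 2.67 FPKM in males and was not called, and Lep, the gene of leptin, was listed at 0 in both. The part of these cells in the Car3 value was not tested.

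Car2, Car3 and Car13 lie in one gene cluster with Car1 on chromosome 2, between 107871642 and 108086130 in build rn5. No other locus of the table overlaps this span of 214 kb. Levels within the cluster were far apart: Car2 was 216-fold above Car13 in females and 209-fold in males, and 565-fold above Car3 in females and 725-fold in males. Car1, the cytosolic form of red blood cells, was at 0.0288 FPKM in females and 0.139 FPKM in males and was not tested by the authors. Car2 is a red cell enzyme as well. Summed red blood cell markers were at 1026 FPKM in females and 771 FPKM in males, nearly all of it globin RNA, and none of their 5 tested loci was called. The part of red cells in the Car2 value was not tested.

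**Figure D2:**
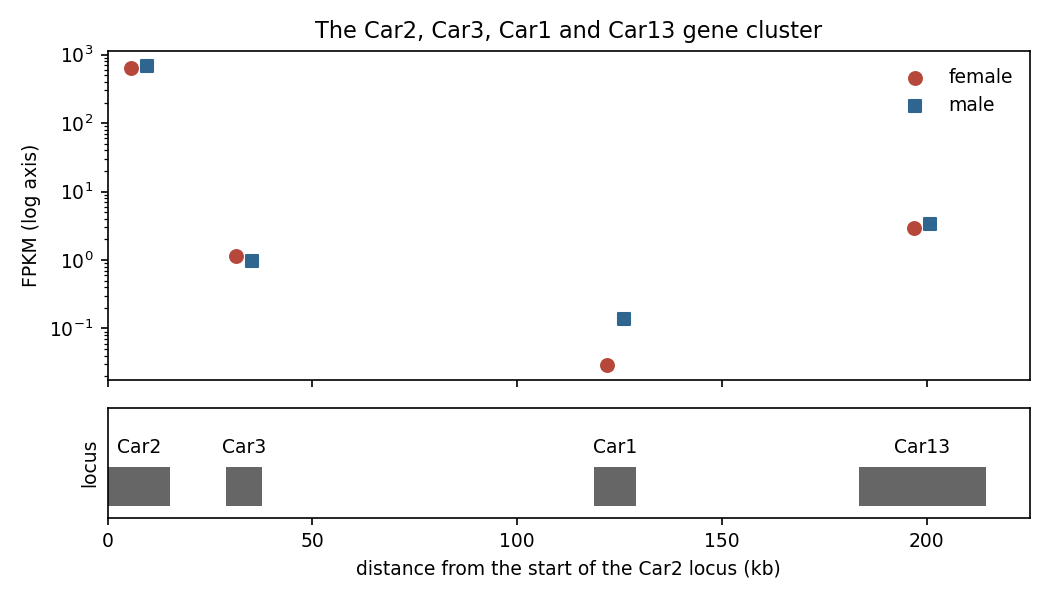
Upper panel, FPKM on a log axis of the 4 genes of the cluster, females as circles and males as squares; lower panel, their deposited loci by distance in kb from the start of the Car2 locus. Car2 at the left end is at 638 FPKM in females and 690 in males, while Car3, Car1 and Car13 are all under 5 FPKM.

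Car5b, a mitochondrial enzyme that supplies bicarbonate to biosynthetic reactions, was at 57.8 FPKM in females and 59.4 FPKM in males. Its log2 ratio of -0.04 was the nearest to 0 of the tested members, and the authors' deposited table gives q = 0.999. The locus is on the X chromosome (32597397 to 32653996, build rn5), and the value in females was 0.973-fold that in males.

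Of the membrane-bound enzymes Car12, Car4 and Car15 had higher values in females, but Car15 alone was called. Car14, which was not tested, had nearly the same value in both sexes. Car12, which spans the membrane and is expressed in collecting duct, was at 88.4 FPKM in females and 75.0 FPKM in males, a log2 ratio of 0.24 (q = 0.845 in the authors' deposited table). Car4, held to the membrane by a lipid anchor and known from the proximal tubule and the thick limb, stood at 39.4 FPKM in females and 30.2 FPKM in males. Its log2 ratio was 0.39, with p = 0.0406 before and q = 0.459 after adjustment in the authors' deposited table. Car14, a membrane-spanning enzyme known from proximal tubule and thin limb in mice, was at 0.338 FPKM in females and 0.337 FPKM in males. Its locus was deposited with an interval that is also given for Aph1a, so the interval is not that of Car14 alone. The summed FPKM of the 4 genes was 136 in females and 106 in males, or 15.2% of the family in females and 11.6% in males. Without Car15 the sum was 128 FPKM in females and 106 FPKM in males.

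The carbonic anhydrase-related proteins Car8 and Car11, which lack zinc-binding histidines and enzyme activity, had ratios of opposite sign. Car8, which binds the inositol trisphosphate receptor, was at 39.7 FPKM in females and 30.8 FPKM in males. Its log2 ratio was 0.37, with p = 0.0422 before and q = 0.468 after adjustment in the authors' deposited table. Car11 was at 17.3 FPKM in females and 24.0 FPKM in males. Its log2 ratio was -0.47, with p = 0.0199 before and q = 0.316 after adjustment in the authors' deposited table. Neither was called, and whether they differ from each other was not tested. Together they made up 6.39% of the family in females and 5.99% in males.

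At an unadjusted p under 0.05 stood 4 of the 9 tested members, Car15, Car4 and Car8 with higher values in females and Car11 with a higher value in males. Over all tested loci 9.77% did, made up of 6.08% with a higher value in females and 3.68% with a higher value in males. Of the 9 tested members 5 had a log2 ratio above 0. Their median was 0.24, beside -0.005 over 20037 tested loci above 0 in both sexes, of which 49.1% were above 0. The summed FPKM of the 10 genes was 892 in females and 915 in males, and without Car2 it was 255 in females and 225 in males.

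The tested loci of like level, taken only from those above 0 in both sexes, show which sex differences were called there. Among 2250 tested loci within 1.5-fold of the mean FPKM of Car4, 46 were called and the smallest called difference was 1.46-fold, while Car4 was 1.31-fold apart. Near Car11 53 of 2932 loci were called, the smallest difference again 1.46-fold, and Car11 was 1.39-fold higher in males. Near Car15 83 of 2845 loci were called, with a median of 2.31-fold, and 6 loci had a larger fold than Car15. Near Car3, at about 1 FPKM, the smallest called difference was 2.03-fold. Near Car8 it was 1.46-fold, and Car8 was 1.29-fold apart. The differences of Car4, Car8 and Car11 were thus smaller than any that was called among loci of their level.

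**Figure D3:**
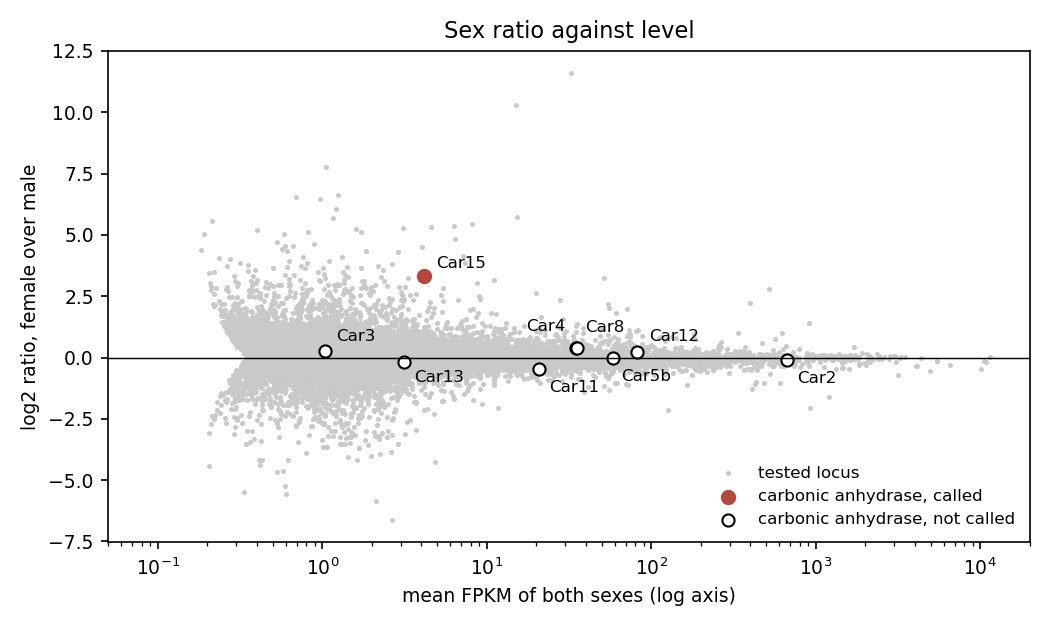
Log2 ratio of female over male (vertical) against mean FPKM of both sexes on a log axis (horizontal) for the 20037 tested loci above 0 in both sexes (grey points) and the 9 tested carbonic anhydrases (circles, filled where called). Car15 lies at 3.31, above most loci of its level, and the other 8 lie between -0.47 and 0.39.

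The remaining genes of the family were low. Car6, a secreted form of saliva, was at 1.03 FPKM in females and 0.563 FPKM in males and was the only one tested, with q = 0.670 according to the authors' deposited table. Car7, a cytosolic form of brain, was at 0.252 FPKM in females and 0.228 FPKM in males. Car9, a membrane enzyme induced by low oxygen, was at 0.206 FPKM in females and 0.145 FPKM in males. Car5a, the mitochondrial form of liver, was listed at 0 in both, and Car10, a related protein of brain, was listed at 0 in females and at 0.0544 FPKM in males.

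Of 29 tested genes of bicarbonate, proton and ammonia handling, in which carbonic anhydrases take part, 1 was called, near the background of 2.34%. That gene was Slc26a7, a chloride-bicarbonate exchanger of intercalated cells, at 8.20 FPKM in females and 5.05 FPKM in males (log2 ratio 0.70, q = 0.00391 in the authors' deposited table). Of 13 tested bicarbonate transporters the other 12 were not called, and the list had a median log2 ratio of 0.08. Slc4a1, the anion exchanger of intercalated and red cells, was at 208 FPKM in females and 184 FPKM in males. Slc4a11 was at 164 FPKM in females and 155 FPKM in males, and the anion exchanger Slc4a2 at 30.1 FPKM in females and 36.5 FPKM in males. None of the 12 tested genes of proton and ammonium transport was called, and 10 had a log2 ratio above 0, with a median of 0.18. Among them the ammonia channels were at 195 FPKM in females and 163 FPKM in males for Rhcg and at 115 FPKM in females and 133 FPKM in males for Rhbg. Atp6v1g3, a proton pump subunit of intercalated cells, was at 182 FPKM in females and 161 FPKM in males. None of the 4 tested genes of ammonia production described here was called (median log2 ratio -0.005). Glul, glutamine synthetase, was at 110 FPKM in females and 100.2 FPKM in males, Glud1, glutamate dehydrogenase, at 105 FPKM in females and 104 FPKM in males, and Slc38a3, a glutamine transporter, at 3.86 FPKM in females and 4.27 FPKM in males.

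Markers of the cells known to express these enzymes were set beside the members. Fewer cells of a type, a differently cut piece of tissue and less RNA per cell cannot be told apart in such samples. Of 15 tested proximal tubule markers 12 were called, all higher in females, with a median log2 ratio of 1.22. Kap, which was called, was at 910 FPKM in females and 131 FPKM in males. Aqp1, Miox and Pck1 were tested and not called. Aqp1 was at 618 FPKM in females and 660 FPKM in males. Miox was at 21.1 FPKM in females and 20.3 FPKM in males, and Pck1 at 3.94 FPKM in females and 4.01 FPKM in males. Summed, the 17 matched markers were at 1834 FPKM in females and 946 FPKM in males, and without Kap and Aqp1, the most abundant, at 305 FPKM in females and 155 FPKM in males, with no marker at 0 in either sex. Car15, and the membrane-bound Car4 without a call, had higher values in females as the called markers of this list did. The called markers of intercalated cells and of urothelium were all higher in females as well. Car14, known like Car4 from the proximal tubule, had 0.338 FPKM in females and 0.337 FPKM in males. The part of proximal tubule in the values of these 3 genes was not tested. Of 10 tested intercalated cell markers 2 were called, Slc26a7 and Kit, both higher in females; Kit, a receptor tyrosine kinase, was at 10.8 FPKM in females and 6.33 FPKM in males. The summed markers of this list were at 1039 FPKM in females and 930 FPKM in males, with none at 0, while Car2 was 0.924-fold in females. Collecting duct markers, with none of 8 called, were summed at 14781 FPKM in females and 20364 FPKM in males, and their median log2 ratio was -0.31. Aqp2 and Fxyd4 made up most of that sum in each sex. Aqp2 was at 8463 FPKM in females and 11693 FPKM in males, and Fxyd4 at 4006 FPKM in females and 5915 FPKM in males.

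Among the other lists, thick limb and distal tubule markers had 1 of 8 tested called, Egf, at 7.61 FPKM in females and 4.42 FPKM in males. Their median log2 ratio was 0.22, and 5 of the 8 were above 0. Calb1 had a log2 ratio of -1.34 without a call, at 0.477 FPKM in females and 1.21 FPKM in males. Slc12a3, also not called, was at 0.882 FPKM in females and 1.13 FPKM in males. Pvalb, a marker of the distal convoluted tubule, was listed at 0 in females and 0.0162 FPKM in males and was not tested. The most abundant markers of that list, Umod and Slc12a1, were not called. Umod was at 830 FPKM in females and 904 FPKM in males, and Slc12a1 at 231 FPKM in females and 199 FPKM in males. Thin limb markers had 1 of 6 called, Sptssb, at 25.1 FPKM in females and 14.6 FPKM in males. Urothelium markers had 3 of 7 called, all higher in females, namely the uroplakins Upk1b and Upk2 and the locus joining the keratins Krt5 and Krt73, with a median of 0.97. Skeletal muscle markers had none of 5 called.

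**Figure D4:**
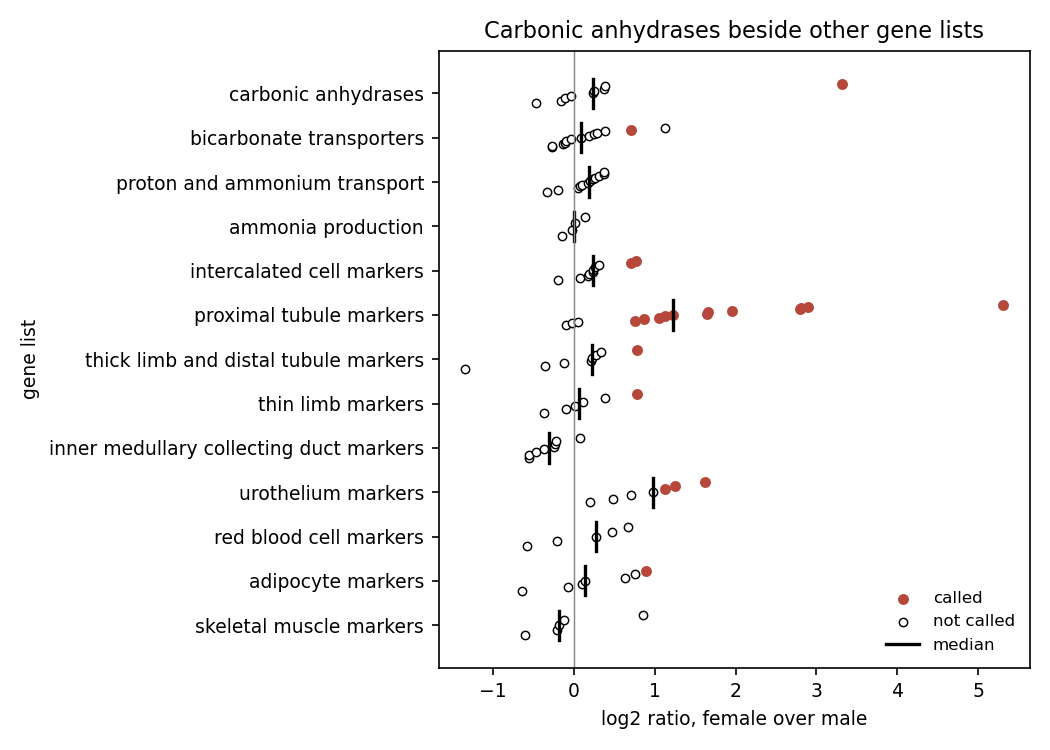
Log2 ratio of female over male (horizontal) of the tested genes in each list (vertical), 1 point per gene, filled where called in the authors' test, with a bar at the list's median. Carbonic anhydrases have 1 called gene of 9 and a median of 0.24, while proximal tubule markers have 12 of 15 called and a median of 1.22.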

How the data were processed

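Per the submitters' processing notes, the tools were cutadapt, FastQC, TopHat2 2.1.1, StringTie and Cufflinks 2.2.1 with build rn5, with no role or order given. The FPKM values were deposited by the authors, 1 per sex with pools joined, in a table with the layout of a Cuffdiff comparison; no header states the unit, which was read from that layout. The p-value, q-value and test statistic (a score, male over female) are the authors' own, deposited per locus. The authors also deposited the read count of each library and the percent of its reads that mapped (89.6 to 90.3). How libraries were normalized to each other, and whether strand was used, is not given in the sources used here.

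Computed here, with Python 3.11.15 and pandas 2.3.3, were log2 ratios of female over male without a pseudocount, sums, ranks, medians and counts. A Benjamini-Hochberg adjustment of the deposited p-values gave the deposited q to within 5.26e-07, a step tested on simulated data. No test of pools could be run; limma was planned for values per pool. FPKM carry no counts, so no counting interval was set. All members of the family and all genes of the comparison lists were chosen with earlier results of these data known. Named from each list of other carbonic anhydrases, transport and ammonia production were the called genes and the 3 of highest mean FPKM. Car1, Car5a and Car10 and the genes named from marker lists were chosen after their values were seen. One gene of the ammonia production list is not reported here. Slc14a2, Aqp1 and Pck1 stand in 2 lists each, and intercalated markers overlap the transport lists. Older symbols were matched through the RefSeq gene table of GRCr8, in which all 10 members have the chromosome deposited here. The RefSeq promoter table held 6 of the 10 members, without Car2, Car3, Car8 and Car13; protein sequences are not analysed here.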

Additional observations from a re-analysis of the deposited data

How the results depend on the processing

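Centred on the median of tested loci averaging at least 1 FPKM, which shifts every log2 ratio by 0.02, the 10 log2 ratios kept their sign. An equal pseudocount (0.1 or 1 FPKM) cannot turn a sign, and summed rows or rows of a single symbol give the same values because each member has 1 row. Car15 ranged from 2.28, with a pseudocount of 1, to 3.33, or from 4.84-fold to 10.04-fold. With q adjusted again over tested loci averaging at least 5 FPKM, 0 members were called higher in females, since Car15 has a mean of 4.13 FPKM and is not among those loci; over those averaging at least 1 FPKM its q was 0.00372. The other alternatives, q under 0.01 and a fold of at least 1.5, left 1 member called higher in females and 0 in males. At q under 0.01 urothelium markers had 1 call instead of 3, and proximal tubule markers had 11 instead of 12. Leaving out a pool was not run. No paired analysis was possible because the values are joined over the pools of a sex. Depth may limit the 4 genes of mean FPKM under 5 most, Car15 among them, but this was not tested.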

Other observations

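Of the other 5 members with a RefSeq promoter window (build GRCr8), Car4, Car12 and Car14 also held ACGTG, at 2, 2 and 1 places. Car12 held GGGCGG, Car4 held TATAAA after the start, and Car5b held AGAACA 68 bases before it on the reverse strand. Car11, the most GC-rich window at 65.0% (median of all promoters 51.7%), held none of the 6 motifs. These matches are a description of letters, and no binding was measured.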
